A study of Mus musculus with 18 samples.

Results

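The genes described here are 10 that carry out iron handling in macrophages: Slc40a1 and Cp, which serve iron export, Tfrc, Slc11a2, Slc11a1 and Steap4, which serve iron entry and movement across membranes, Hmox1, which frees iron from haem, Fth1 and Ftl1, which store it, and Aco1, which senses it. They were chosen by gene symbol, and every probe set annotated to that symbol alone was taken, apart from 3 control probe sets. That gave 26 probe sets, of which 22 passed the filter on low signals, for 9 of the 10 genes. Over the whole array, 11721 genes had a probe set of their own that passed this filter. Ftl1 is covered only by 3 probe sets whose annotation also names other genes, and no value is given for it.

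The data are 18 Affymetrix 3' arrays of total RNA from cells labelled as mouse immune cells, 6 each at 0 h, 1 h and 4 h after a cell wall extract was given, and the labels do not say whether the 0 h cells were untreated. The mice are described as knockouts, and no label says which gene was deleted on which array, whether wild type mice were included, or the strain, age, cell type or preparation. The titles hold array numbers that form 3 sets, codes 44 to 54, codes 32 to 37 and codes 12 to 22, and each set has 2 arrays at every time. What these code ranges stand for is not labelled, so genotype, preparation and batch cannot be told apart between them. The arrays of a group are not said to come from separate animals, so p-values measure the spread between arrays, which may be technical.

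Macrophages take up dying red cells and return their iron to the blood. Haem oxygenase, encoded by Hmox1, opens the haem ring and releases the iron, which is then either held in ferritin or exported by ferroportin, the product of Slc40a1. Much of this control acts after transcription: iron regulatory proteins bind hairpins in the RNAs of ferritin, ferroportin and the transferrin receptor and alter their translation or decay, so an RNA level need not follow the protein.

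Of 10 macrophage markers 9 were tested, and their summed signal lay between 176101 and 252525 over all arrays. Adgre1, the gene of the F4/80 antigen, lay between 16119 and 32070, while Mertk, the dimmest of the 9 at its lowest, went down to 82.9. The mean log2 level of the 9 markers was 13.79 ± 0.10 at 0 h, 13.79 ± 0.08 at 1 h and 13.34 ± 0.18 at 4 h (SD, n = 6 each), and its part in the 4 h results was not tested. Of 8 erythroid markers, 5 had a probe set, 3 of these (Hba-a1, Alas2 and Slc4a1) did not pass the filter, and the summed signal of the 5 lay between 141 and 410. Stromal markers set the ranges apart: their summed signal was 11092 to 15738 in codes 44 to 54, 2790 to 4979 in codes 32 to 37 and 1101 to 1553 in codes 12 to 22. Neutrophil markers ran the other way, at 1305 to 2612 in codes 44 to 54, 1895 to 4134 in codes 32 to 37 and 3842 to 6632 in codes 12 to 22. None of the 7 stromal markers tested changed with time, and in a bulk sample fewer cells of a type and less RNA per cell cannot be told apart. At 4 h, 1 of the 9 macrophage markers rose and 1 fell, 1 of 6 neutrophil markers rose, the single tested T cell marker and the single tested B cell marker fell, and none of 2 erythroid and 2 dendritic cell markers passed. The 3'/5' signal ratio of the actin control was 1.20 to 1.56 on 16 arrays and stood apart on 2 arrays of codes 32 to 37, at 2.44 on an array at 1 h (code 36) and 1.98 on an array at 4 h (code 37).

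At 4 h, 5 of the 9 genes had risen and 1 had fallen relative to 0 h, and at 1 h none had changed. The genes that rose were Steap4, Cp, Slc11a2, Hmox1 and Slc11a1, by 12.3-fold to 1.63-fold on the scale of signal + 16, and the gene that fell was Aco1, by 1.42-fold. Over all 25775 probe sets tested, 9.95% rose and 23.1% fell at 4 h, and at 1 h 0.753% changed in either direction. Steap4 passed the filter on low signals only through its 4 h arrays, so its rise was partly set by the filter. Of the other 8 genes, 4 rose and 1 fell at 4 h, with a median log2 change of 0.87, against -0.22 for all probe sets. These calls come from a linear model on log2(signal + 16) fitted to all arrays in limma, with p-values adjusted over all probe sets and a threshold of 0.05. At 1 h the lowest unadjusted p among the representative probe sets of the 9 genes was 0.384. A second Slc11a2 probe set gave 0.69 at 1 h with an unadjusted p of 0.00819 and an adjusted p of 0.336.

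**Figure D1:**
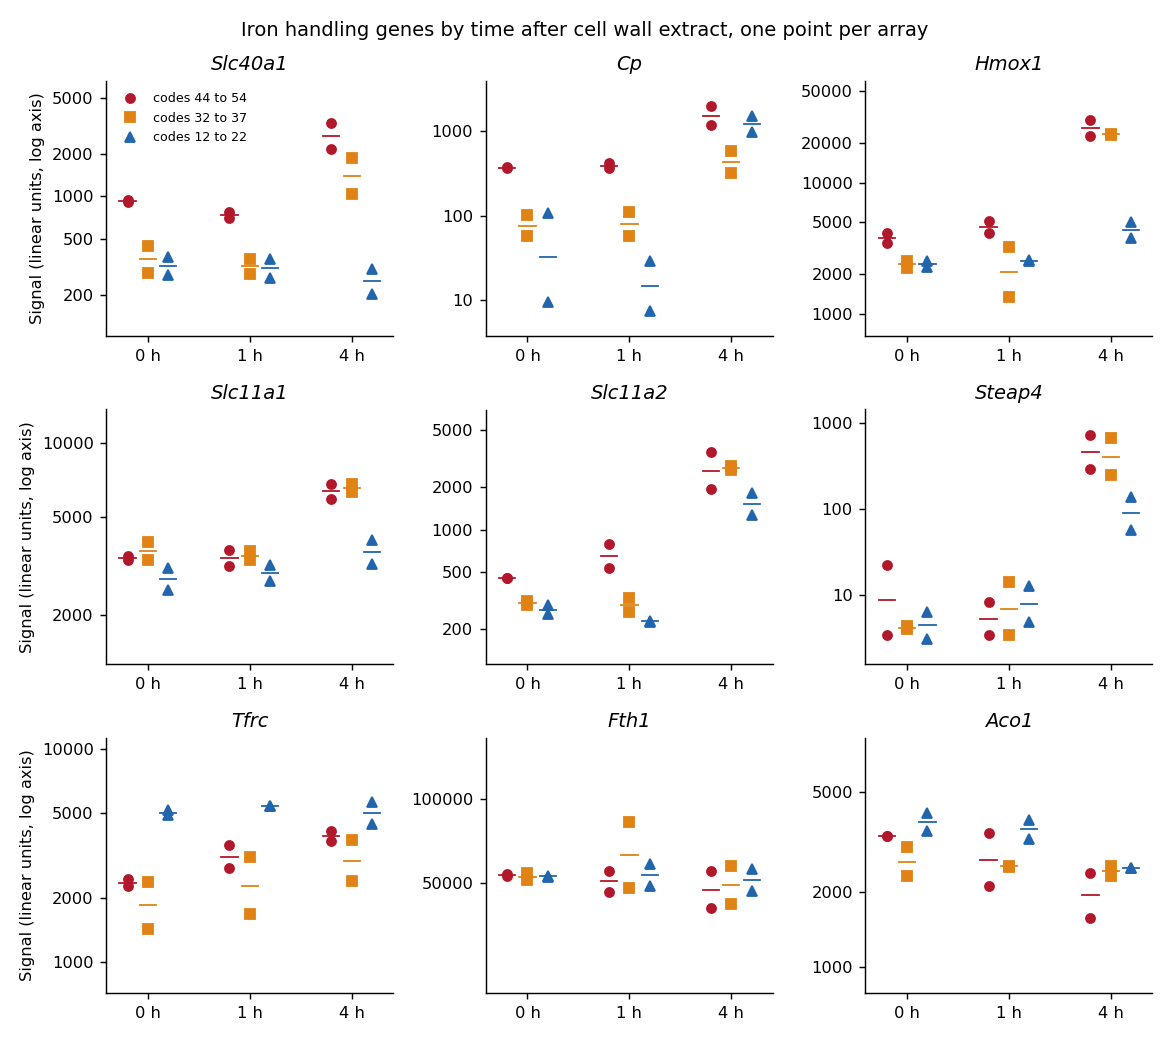
Signal of the representative probe set of each gene on every array (linear units, logarithmic axis) at 0 h, 1 h and 4 h; colours and shapes mark the 3 ranges of array codes and short lines the geometric mean of each pair of arrays. Slc11a2 and Steap4 lie higher at 4 h than at 0 h on every array, while Hmox1 and Slc40a1 at 4 h are far lower in codes 12 to 22 than in the other ranges.

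Slc40a1 encodes ferroportin, the only known iron exporter of mammalian cells. Its signal had a lowest, median and highest value of 275, 407 and 938 at 0 h, 264, 358 and 777 at 1 h, and 203, 1465 and 3325 at 4 h. The groups overlapped, since the lowest 4 h array lay below every 0 h array. Over all arrays the log2 change at 4 h was 1.04 ± 0.58 (SE, adjusted p = 0.180), and a fit blocked on code range, in which 12.6% of all probe sets rose, gave an adjusted p of 0.0226. Leaving out a single array, code 16 at 4 h, gave 1.48 with an adjusted p of 0.0384. The second Slc40a1 probe set, with signals of 107 to 903 at 4 h and 123 to 349 at 0 h, changed by 0.59 ± 0.58 (adjusted p = 0.465).

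The spread of Slc40a1 at 4 h followed the code range. In codes 44 to 54 its signals were 938 and 916 at 0 h, 707 and 777 at 1 h, and 2191 and 3325 at 4 h. In codes 32 to 37 they were 287 and 441 at 0 h, 358 and 281 at 1 h, and 1035 and 1894 at 4 h. In codes 12 to 22 they were 275 and 372 at 0 h, 264 and 357 at 1 h, and 305 and 203 at 4 h. Ferroportin RNA was thus higher at 4 h than at 0 h on every array of the first and second of these ranges, while in codes 12 to 22 the times overlapped. Within codes 44 to 54 the rise was 1.53 ± 0.33 (adjusted p = 0.00848) and within codes 32 to 37 it was 1.93 ± 0.33 (adjusted p = 0.00293), against -0.34 ± 0.33 (adjusted p = 0.518) within codes 12 to 22.

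Cp encodes ceruloplasmin, a copper-containing ferroxidase that oxidises exported iron so that transferrin can bind it. It had a lowest, median and highest signal of 9.58, 105 and 379 at 0 h, 7.58, 85.2 and 420 at 1 h, and 324, 1076 and 1969 at 4 h. The 4 h and 0 h groups overlapped only because the 0 h arrays of codes 44 to 54, at 365 and 379, lay above the lowest 4 h array. The rise was 2.90 ± 0.74 on the log2 scale (adjusted p = 0.00603), a 7.46-fold change. Of its 8 probe sets 6 passed the filter, 3 of them only through their 4 h arrays. The 3 that passed without these, the representative among them, rose by 2.34 to 2.90. Without the 6 arrays of codes 12 to 22 the representative rose by 2.13 with an adjusted p of 0.0568.

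Ceruloplasmin RNA responded in every range. In codes 44 to 54 its signals were 1969 and 1183 at 4 h, against 365 and 379 at 0 h. In codes 32 to 37 they were 582 and 324 at 4 h, against 57.8 and 102 at 0 h, and in codes 12 to 22 they were 970 and 1499 at 4 h, against 109 and 9.58 at 0 h. Log2 changes were 1.99 ± 0.62 (adjusted p = 0.0445), 2.27 ± 0.62 (adjusted p = 0.0292) and 4.43 ± 0.62 (adjusted p = 4.48e-04) within the ranges in that order. Ceruloplasmin RNA thus passed in codes 12 to 22 too, and the difference in response between codes 32 to 37 and codes 12 to 22 did not pass, at -2.16 with a 95% interval of -4.08 to -0.24 (adjusted p = 0.337).

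Tfrc encodes the transferrin receptor, through which cells take up iron bound to transferrin. Its signal had a lowest, median and highest value of 1433, 2416 and 5176 at 0 h, 1681, 3333 and 5415 at 1 h, and 2397, 3952 and 5655 at 4 h. The change at 4 h was 0.47 ± 0.33 (adjusted p = 0.280), and the adjusted p was 0.0468 in the fit blocked on code range. The other 2 probe sets gave -0.04 (adjusted p = 0.931) and -0.46 (adjusted p = 0.379), so the probe sets of Tfrc did not share a direction.

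Slc11a2 encodes DMT1, which moves ferrous iron across the endosomal membrane. It had a lowest, median and highest signal of 255, 305 and 461 at 0 h, 227, 298 and 789 at 1 h, and 1262, 2266 and 3472 at 4 h. Every 4 h array lay above every 0 h array, as was so for 5.59% of all probe sets. The rise was 2.64 ± 0.30 (adjusted p = 3.83e-06), a 6.24-fold change. Of its 4 probe sets 3 passed the filter without the 4 h arrays, and these rose by 2.04, 2.64 and 3.28. The steepest had signals of 913 to 1336 at 4 h, against 83 to 173 at 0 h. Within codes 44 to 54, 32 to 37 and 12 to 22 the rises were 2.45, 3.08 and 2.39, each with an SE of 0.28 and an adjusted p of at most 1.75e-04.

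Slc11a1 encodes NRAMP1, a divalent metal transporter of the phagosome membrane that is known for its part in resistance of mice to intracellular bacteria. It had a lowest, median and highest signal of 2516, 3353 and 3964 at 0 h, 2750, 3272 and 3658 at 1 h, and 3235, 6137 and 6841 at 4 h. The change was smaller than that of Slc11a2, at 0.71 ± 0.18 (adjusted p = 0.00534), and the groups overlapped. In codes 44 to 54 its signals were 6829 and 5936 at 4 h, against 3472 and 3357 at 0 h. In codes 32 to 37 they were 6841 and 6339 at 4 h, against 3350 and 3964 at 0 h, and in codes 12 to 22 they were 3235 and 4029 at 4 h, against 3090 and 2516 at 0 h. The rises of 0.90 and 0.85 in the first and second of these passed the test (adjusted p = 0.00640 and 0.0101), and the change of 0.37 in codes 12 to 22 did not (adjusted p = 0.188). The difference in response between codes 32 to 37 and codes 12 to 22 was 0.48 with an adjusted p of 0.519.

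Steap4 encodes a membrane metalloreductase that turns ferric iron into ferrous iron, the form that DMT1 carries. Of its 2 probe sets 1 passed the filter. That probe set was dim before 4 h: it lay below the median of its array on every array at 0 h and 1 h and above it on 5 of 6 at 4 h. The lowest, median and highest signals were 3.10, 4.16 and 22.3 at 0 h, 3.40, 6.53 and 13.9 at 1 h, and 57.0, 266 and 710 at 4 h. No 4 h array overlapped the 0 h arrays, and the fit gave 3.62 ± 0.42 (adjusted p = 5.05e-06). The probe set entered the test only through its 4 h arrays, so this value describes these arrays and its size depends on the constant of 16 added before the logarithm. With 1 added it was 5.27 and with 64 added it was 2.25. Within codes 44 to 54, 32 to 37 and 12 to 22 the rises were 4.10, 4.38 and 2.36, each with an SE of 0.54 and an adjusted p of at most 0.00848. The other Steap4 probe set did not pass the filter. Its signals of 7.39 to 261 at 4 h overlapped those of 7.10 to 52.1 at 0 h. It lay above the array median on 2 of 6 arrays at 4 h.

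The promoters of Steap4 and Cp are shown. Both RNAs had higher signals at 4 h than at 0 h in every range, and so did Slc11a1, Slc11a2 and Hmox1. The rises of the representative probe sets of Steap4 and Cp passed the test within every range, and that of Slc11a1 did not. Steap4 entered the test only through its 4 h arrays, so its calls were partly set by the filter. The Slc11a1 window held none of the motifs below and is not printed, and no window was at hand for Slc11a2 and Hmox1. The printed windows are the 250 bases before an annotated start, taken from RefSeq on GRCm38.p6. Steap4 lies at chr5:7960222-7960471 and Cp at chr3:19956999-19957248, both on the plus strand, and the Cp window belongs to the downstream of 2 annotated starts. Capitals mark matches, on either strand, to TTGCNNAA (C/EBP), TTCNNNGAA (STAT), GGGA followed after any 4 bases by CC (NF-kB) and TGANTCA (AP-1), and no marked matches overlap.
Steap4: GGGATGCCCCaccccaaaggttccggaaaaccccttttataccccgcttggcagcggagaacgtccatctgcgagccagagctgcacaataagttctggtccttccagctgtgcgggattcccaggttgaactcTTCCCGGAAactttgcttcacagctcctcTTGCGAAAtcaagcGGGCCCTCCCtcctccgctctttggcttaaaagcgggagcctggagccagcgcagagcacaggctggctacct
Cp: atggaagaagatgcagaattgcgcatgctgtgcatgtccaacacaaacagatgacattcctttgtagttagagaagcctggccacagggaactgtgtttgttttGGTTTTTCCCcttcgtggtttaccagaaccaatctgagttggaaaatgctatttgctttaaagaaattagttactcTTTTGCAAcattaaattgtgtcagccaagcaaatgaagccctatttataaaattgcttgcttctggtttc
The Steap4 window held a C/EBP match starting 87 bases before the start, a STAT match at 116 and NF-kB matches at 250 and 73. The Cp window held a C/EBP match at 70 and an NF-kB match at 146, both on the minus strand. The window of the other Cp start held an AP-1 match and none of the other 3 motifs. Of the 250-base windows of 32851 RefSeq promoters, 9.56% held the C/EBP letters, 7.02% the STAT letters, 17.6% the NF-kB letters and 6.75% the AP-1 letters. Windows were at hand for 7 of the 10 genes, and those of Tfrc, Slc11a1, Aco1 and Ftl1 held none of the 4 motifs, while the downstream of 2 Fth1 starts held C/EBP and NF-kB letters. A match describes the letters and is not a binding site, and these letters were read in the reference sequence alone.

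Hmox1, the inducible haem oxygenase, had a lowest, median and highest signal of 2232, 2519.5 and 4097 at 0 h, 1348, 2884 and 5074 at 1 h, and 3769, 22901 and 29870 at 4 h. The rise was 2.31 ± 0.47 (adjusted p = 9.60e-04), a 4.97-fold change. The groups overlapped through a single array, since the lowest 4 h array lay below the highest 0 h array.

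The wide spread of Hmox1 at 4 h lay between ranges and not within them. In codes 44 to 54 its signals were 4097 and 3439 at 0 h, 4124 and 5074 at 1 h, and 22840 and 29870 at 4 h. In codes 32 to 37 they were 2523 and 2232 at 0 h, 3212 and 1348 at 1 h, and 23712 and 22962 at 4 h. In codes 12 to 22 they were 2516 and 2255 at 0 h, 2557 and 2512 at 1 h, and 4999 and 3769 at 4 h. The 4 h arrays of codes 12 to 22 thus reached a level that arrays of codes 44 to 54 held at 0 h and 1 h. Within codes 44 to 54 the rise was 2.79 ± 0.32 (adjusted p = 2.01e-04) and within codes 32 to 37 it was 3.29 ± 0.32 (adjusted p = 8.49e-05), against 0.86 ± 0.32 (adjusted p = 0.0816) within codes 12 to 22.

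Ferritin heavy chain, Fth1, oxidises iron as it enters the ferritin shell. Its signals lay at 51212 to 54260 at 0 h, 46701 to 82509 at 1 h and 40682 to 57446 at 4 h. The change at 4 h was -0.10 with a 95% interval of -0.40 to 0.19 (adjusted p = 0.603), and the second probe set gave -0.09. It did not pass within any range, where the values were -0.17, -0.10 and -0.04. The direction is not settled, since median centring turned the estimate to 0.15 and quantile normalization to 0.08.

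Aco1 encodes the cytosolic aconitase that, without its iron-sulphur cluster, becomes iron regulatory protein 1. Its representative probe set had a lowest, median and highest signal of 2310, 3335 and 4119 at 0 h, 2108, 2899 and 3890 at 1 h, and 1581, 2434 and 2528 at 4 h. The groups overlapped, and the change was -0.50 ± 0.17 (adjusted p = 0.0322). Its other tested probe set did not overlap between the times, with signals of 400.1 to 530 at 4 h, against 557 to 689 at 0 h, as was so in this direction for 11.3% of all probe sets, and fell by 0.38 ± 0.11 (adjusted p = 0.0128). The call of the representative is a weak one: it was lost without code 46 at 4 h (adjusted p = 0.0819) and without any of 4 of the 0 h arrays (codes 47, 44, 18 and 12, adjusted p = 0.0552 to 0.0767), and with each array centred on its median it was -0.25 (adjusted p = 0.333).

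**Figure D2:**
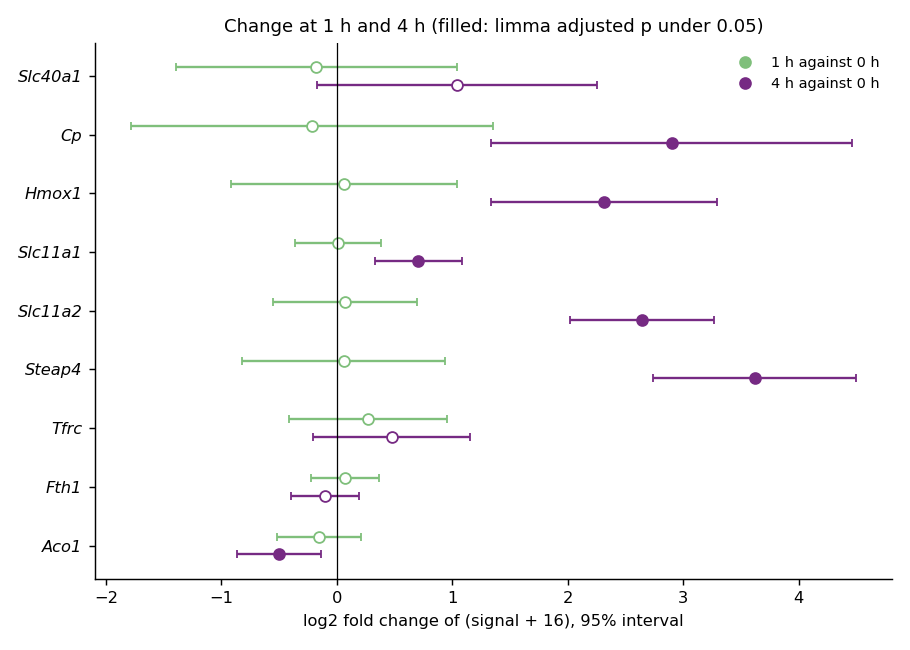
Log2 fold change of each gene at 1 h and at 4 h against 0 h (horizontal axis, log2 of signal + 16), with 95% intervals from the limma fit over 18 arrays; filled points passed an adjusted p of 0.05. No 1 h point is filled, and at 4 h the 5 filled points to the right are Cp, Hmox1, Slc11a1, Slc11a2 and Steap4, with Aco1 filled on the left.

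Set against 1 h, Cp, Hmox1, Slc11a1, Slc11a2 and Steap4 had risen at 4 h and no representative probe set had fallen, where 7.71% of all probe sets rose and 16.7% fell. Slc11a2 rose by 2.57 ± 0.30 and Steap4 by 3.56 ± 0.42, with no overlap between the 2 groups in either gene, as was so for 3.63% of all probe sets. Steap4 passed the filter only through its 4 h arrays, so its rise and its separation were partly set by the filter. Of the other 8 genes, 4 rose and 0 fell. The other Aco1 probe set fell by 0.41 ± 0.11 (adjusted p = 0.0102). This comparison shares its 4 h arrays with the comparison against 0 h.

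Within the ranges taken one at a time, with 2 arrays per time and a spread pooled over all 9 groups of arrays, 6 of the 9 genes had risen at 4 h in codes 44 to 54, 6 in codes 32 to 37 and 3 in codes 12 to 22, and none had fallen. Over all probe sets, 6.42%, 6.19% and 7.27% rose and 12%, 8.97% and 13.1% fell in these ranges, so codes 12 to 22 had the most probe sets risen and the fewest of the iron genes. Without Steap4 the counts were 5, 5 and 2 of 8. The 3 genes that rose in codes 12 to 22 were Slc11a2, Steap4 and Cp, while Hmox1, Slc40a1 and Slc11a1 passed in both other ranges and not in codes 12 to 22.

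A test of the difference in response bears on which of these differ between ranges. Between codes 32 to 37 and codes 12 to 22, the 4 h response differed for Hmox1, by 2.43 ± 0.46 (adjusted p = 0.0249), and for Slc40a1, by 2.27 ± 0.47 (adjusted p = 0.0389). The second Slc40a1 probe set gave 1.01 ± 0.80 (adjusted p = 0.686). In that test 0.951% of all probe sets had a larger response in codes 32 to 37. Between codes 44 to 54 and codes 12 to 22 the estimates were 1.93 ± 0.46 for Hmox1 (adjusted p = 0.238) and 1.87 ± 0.47 for Slc40a1 (adjusted p = 0.260), in a test that called 0.0388% of all probe sets. There, 4 of the 9 genes had an unadjusted p under 0.05 and 0 passed, while 1694 of all 25775 probe sets had such an unadjusted p. Of these genes, Hmox1, Slc40a1 and Steap4 had the larger response in codes 44 to 54 and Cp the smaller (-2.44). Steap4 entered the test only through its 4 h arrays. Between codes 44 to 54 and codes 32 to 37, Hmox1 differed by -0.50 (95% interval -1.49 to 0.50) and Slc40a1 by -0.40 (-1.43 to 0.63), in a test that called 0.00776% of all probe sets. For Slc11a2 the difference was 0.69 between codes 32 to 37 and codes 12 to 22 (95% interval -0.17 to 1.54), 0.06 between codes 44 to 54 and codes 12 to 22 (-0.80 to 0.91) and -0.63 between codes 44 to 54 and codes 32 to 37 (-1.48 to 0.22), with adjusted p of at least 0.540.

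Both called differences rest on few arrays. Without any one of the 8 arrays at 0 h and 4 h in these ranges the Hmox1 difference lost its call, at 2.22 to 2.63 with an adjusted p of up to 0.0939. The Slc40a1 difference lost its call without any of 10 single arrays (codes 54, 51, 47, 44, 37, 35, 32, 18, 16 and 12), and was smallest without code 37, at 1.84 (adjusted p = 0.139). Code 37 is an array with a high control ratio, and the part of RNA quality in these values was not tested beyond leaving out both such arrays, which gave 1.84 for Slc40a1 (adjusted p = 0.134) and left the Hmox1 call in place. Median centring ended the Hmox1 call (2.40, adjusted p = 0.0653) and quantile normalization the Slc40a1 call (2.10, adjusted p = 0.0564). The neutrophil and stromal markers given above differ between the same ranges, and their part in these values was not tested.

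**Figure D3:**
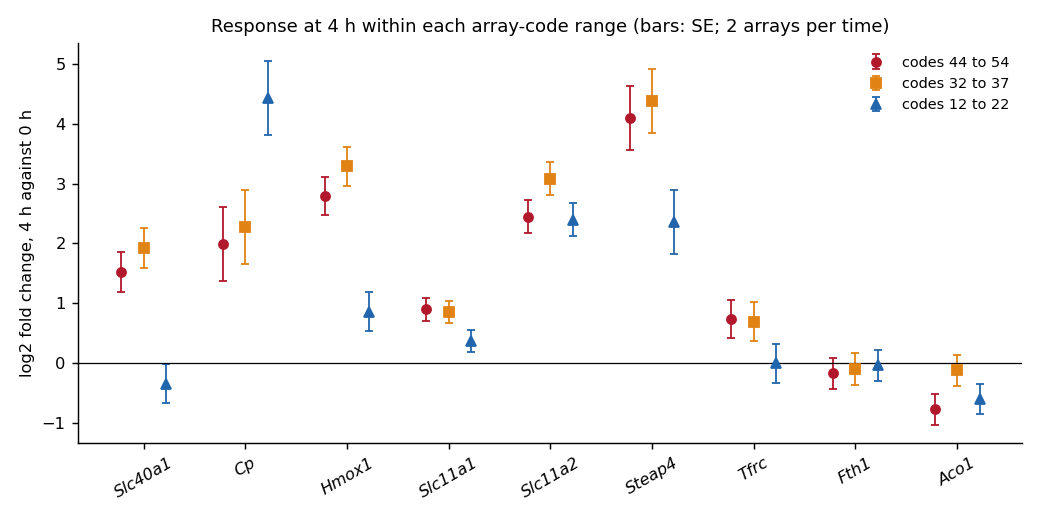
Log2 fold change at 4 h against 0 h (vertical axis, log2 of signal + 16) for each gene within each range of array codes, with SE bars from the limma fit of 9 group means with 2 arrays each. Hmox1 and Slc40a1 in codes 12 to 22 lie at 0.86 and -0.34, below the other ranges, whereas Slc11a2, at 2.39, lies near them and Cp, at 4.43, above them. The size of that Cp value depends on the added constant of 16.

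With time as a term in the fit, levels over all times differed between ranges. The 4 h arrays behind the differences in response are part of these levels, so the 2 comparisons are not separate. Between codes 44 to 54 and codes 12 to 22, 5 of the 9 genes were higher and 1 was lower, where 10.5% of all probe sets were higher and 8.69% lower. Slc40a1 was higher by 2.02 ± 0.34 (adjusted p = 6.20e-04), and its signals of 707 to 3325 in codes 44 to 54 did not overlap those of 203 to 372 in codes 12 to 22, as was so in this direction for 4.42% of all probe sets. Cp was higher by 2.26 ± 0.50 (adjusted p = 0.00469), Hmox1 by 1.36 ± 0.36 (adjusted p = 0.0136), Slc11a2 by 0.98 ± 0.19 (adjusted p = 0.00203) and Slc11a1 by 0.43 ± 0.12 (adjusted p = 0.0209), a call that was lost without code 46 (0.38, adjusted p = 0.0528) and on median centring (0.34, adjusted p = 0.0968). Tfrc was lower by 0.74 ± 0.18 (log2 difference -0.74, adjusted p = 0.00935), with signals of 2272 to 4144 in codes 44 to 54 and 4459 to 5655 in codes 12 to 22, a separation in this direction that 3.19% of all probe sets had. Slc40a1 and Tfrc were thus the 2 genes whose representative probe sets separated these ranges on every array, in opposite directions. The second Slc40a1 probe set separated them too (1.78, adjusted p = 0.00639). The other Tfrc probe sets overlapped and did not pass, at -0.32 (adjusted p = 0.430) and -0.11 (adjusted p = 0.872).

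Between codes 32 to 37 and codes 12 to 22, Tfrc was lower (-1.14 ± 0.18, adjusted p = 6.05e-04), at 1433 to 3759 in codes 32 to 37 and again with no overlap, as was so in this direction for 2.08% of all probe sets. Slc11a1 was higher (0.49 ± 0.12, adjusted p = 0.0116), and over all probe sets 9.67% were higher and 8.13% lower. Between codes 44 to 54 and codes 32 to 37, Cp was higher by 1.97 ± 0.50 (adjusted p = 0.0121) and Slc40a1 by 1.15 ± 0.34 (adjusted p = 0.0288), where 8.9% of all probe sets were higher. The Slc40a1 call was lost without any one of codes 49, 46, 36, 35, 33 and 32 (adjusted p up to 0.0717). The rank of the ranges by summed stromal marker signal was the rank by mean log2 level of Slc40a1 (10.28, 9.13 and 8.26 in codes 44 to 54, 32 to 37 and 12 to 22) and Cp (9.29, 7.32 and 7.03). It was also the rank for Hmox1 (12.91, 12.26 and 11.54), Slc11a2 (9.88, 9.34 and 8.89) and Steap4 (6.03, 5.88 and 5.24), and not for Tfrc, Fth1, Slc11a1 and Aco1. The Cp step of 0.29 between codes 32 to 37 and codes 12 to 22 did not pass (adjusted p = 0.742), and the other Cp probe sets gave -1.11 to 0.24. The part of the stromal marker signal in these differences was not tested. Other Tfrc probe sets had signals of 263 to 462 and 63.2 to 124 in codes 44 to 54, against 314 to 603 and 64 to 128 in codes 12 to 22, overlapping in both.

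Among 53 other iron genes, 48 had a probe set and 43 were tested, of which 11 rose, 9 fell and 23 did not pass at 4 h. Over all probe sets 9.95% rose and 23.1% fell, so the falls lay near the share of all probe sets. Of the 11, Lcn2 and Hp passed the filter on low signals only through their 4 h arrays. The median log2 change of the 43 was -0.10, and at 1 h 0 of them passed, with 1 at an unadjusted p under 0.05. Of 10 genes of iron uptake and reduction, 2 rose and 1 fell. Lcn2, lipocalin 2, which binds bacterial siderophores and so withholds iron, had signals of 337 to 2819 at 4 h, against 4.66 to 85.0 at 0 h, a rise of 4.66 ± 0.54 (adjusted p = 5.10e-06). Slc39a14, the transporter ZIP14, had signals of 2967 to 7009 at 4 h, against 343 to 763 at 0 h, a rise of 3.24 ± 0.24 (adjusted p = 4.38e-08). The reductase gene Steap3 fell by 0.64, a call lost on median centring and on quantile normalization.

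Of 13 genes of haem handling, 4 rose and 6 fell, where 9.95% of all probe sets rose and 23.1% fell. Quantile normalization ended the calls of Blvrb (adjusted p = 0.0952) and Slc48a1 (0.0771), which rose, and median centring that of Pgrmc1 (0.599), which fell. Hp, haptoglobin, which binds free haemoglobin, rose by 2.55 ± 0.39 and Alas1, the first enzyme of haem synthesis, by 1.70 ± 0.18. Hp passed the filter only through its 4 h arrays, so its place among the 4 was partly set by the filter. Flvcr1, which exports haem, fell (-1.14 ± 0.20), as did Cd163, the receptor for haptoglobin bound to haemoglobin (-1.01 ± 0.23). Cd163 was dim, with signals of 40.4 to 88.4 at 4 h, against 64.1 to 179 at 0 h. It lay above the array median on 1 of 6 arrays at 4 h and 5 of 6 at 0 h. Hmox2, the constitutive haem oxygenase, was added after its values were seen and fell too (-0.84 ± 0.17). Of 10 regulators, 3 rose and 1 fell, beside the same shares of all probe sets. Nfe2l2, which encodes NRF2, an activator of Hmox1 in oxidative stress, rose by 1.22 ± 0.18, with signals of 15908 to 19393 at 4 h, against 5400 to 8777 at 0 h. Hif1a rose by 1.15 ± 0.32, and Hfe, the gene mutated in hereditary haemochromatosis, fell (-1.73 ± 0.28), with signals of 685 to 1695 at 4 h, against 2271 to 5470 at 0 h.

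Ireb2, which encodes the second iron regulatory protein, gave 0.14 ± 0.12 (adjusted p = 0.402), with signals of 1478 to 1824 at 4 h, against 1224 to 1719 at 0 h, and on median centring 0.40 (adjusted p = 0.0219). Of the mitochondrial iron genes, 1 of 6 rose, where 9.95% of all probe sets did. This was the mitoferrin gene Slc25a37, by 1.67 ± 0.26 (adjusted p = 1.03e-04). Of 4 storage and chaperone genes, Pcbp1 rose by 0.54 ± 0.13 and Pcbp2 fell by 0.27 ± 0.10, with an adjusted p of 0.0464 for Pcbp2 that was lost on median centring (-0.01, adjusted p = 0.957).

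**Figure D4:**
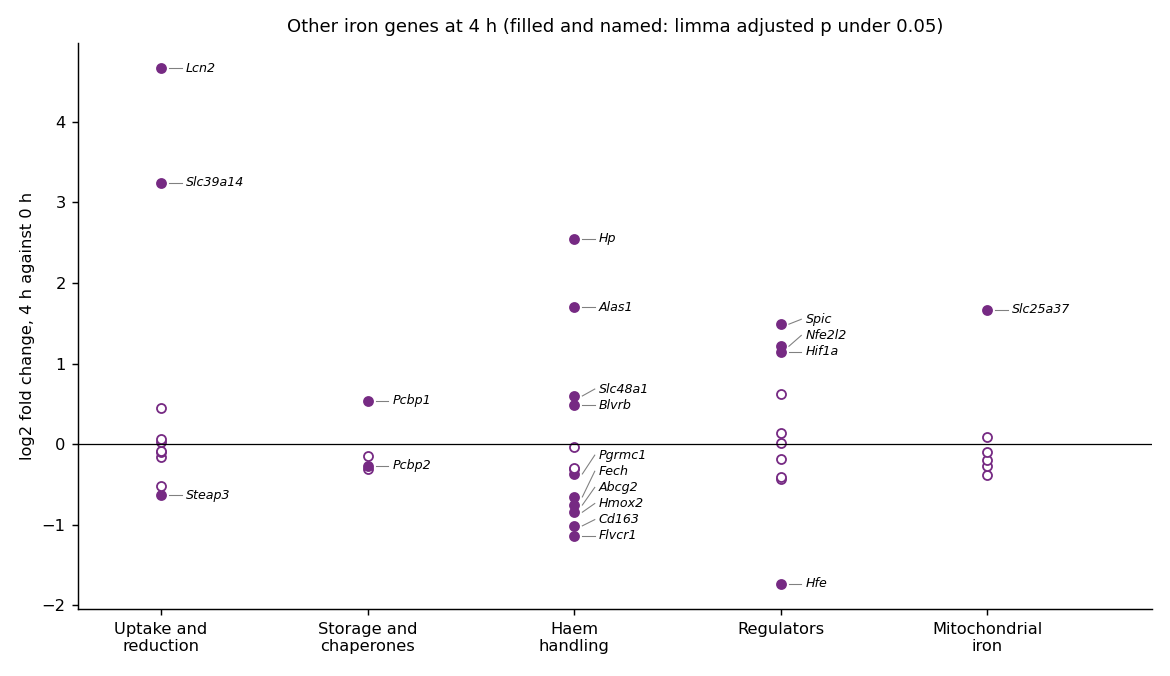
Log2 fold change at 4 h against 0 h (vertical axis) of 43 other iron genes in 5 lists by role; filled, named points passed an adjusted p of 0.05 in limma. Lcn2 at 4.66 and Slc39a14 at 3.24 rose most, and haem handling is the list with the most genes that fell, 6 of 13. Lcn2 and Hp passed the filter on low signals only through their 4 h arrays. Over all probe sets 9.95% rose and 23.1% fell.

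The same test of the difference in response between codes 32 to 37 and codes 12 to 22 called 3 of these 43 genes, Bach1, Spic and Flvcr1, where 1.36% of all probe sets were called in either direction. Bach1 encodes a repressor of Hmox1 that haem binds and inactivates, and it is named here after its values were seen. Its signals at 4 h were 8251 and 8096 in codes 44 to 54, 8448 and 7848 in codes 32 to 37, and 2941 and 2772 in codes 12 to 22. On all 12 arrays at 0 h and 1 h it lay between 6931 and 8573, so only the pair of 4 h arrays of codes 12 to 22 stood apart. The difference in response was 1.53 ± 0.21 (adjusted p = 0.00510), and between codes 44 to 54 and codes 12 to 22 it was 1.36 ± 0.21 (adjusted p = 0.0559). Hmox1 and Bach1 RNA were thus both lower at 4 h in codes 12 to 22 than in the other ranges.

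Spic encodes a transcription factor that red pulp macrophages of the spleen need and that haem induces. Its signals at 4 h were 294 and 499 in codes 44 to 54, 220 and 302 in codes 32 to 37, and 39.9 and 26.8 in codes 12 to 22, while at 0 h all arrays lay between 30 and 64.6. Over all arrays it rose by 1.49 ± 0.47 (adjusted p = 0.0220), a call lost without any one of the 4 h arrays of codes 49, 46 and 37 (1.18 to 1.32, adjusted p = 0.0502 to 0.0542), and the difference in response between codes 32 to 37 and codes 12 to 22 was 2.51 ± 0.49 (adjusted p = 0.0298). At 1 h the 3 ranges overlapped, with signals of 62.3 to 133. Flvcr1 fell by more in codes 12 to 22, to 2065 and 2009 at 4 h, against 8126 and 6539 at 0 h, than in codes 32 to 37, where it was 3060 and 3755 at 4 h, against 4688 and 4480 at 0 h. That difference was 1.40 ± 0.25 (adjusted p = 0.0191). Leaving out single arrays ended the call of Spic in 7 of 18 cases (2.23 to 2.79, adjusted p up to 0.118) and of Flvcr1 in 6 of 18 (1.24 to 1.55, adjusted p up to 0.0868), and of Bach1 in 0 of 18. Without both arrays of high control ratio, the adjusted p was 0.126 for Spic and 0.0723 for Flvcr1. By contrast Slc39a14 rose by 3.09, 3.40 and 3.23 within codes 44 to 54, 32 to 37 and 12 to 22. Lcn2, which passed the filter only through its 4 h arrays, rose by 4.39, 4.99 and 4.60 in these ranges.

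**Figure D5:**
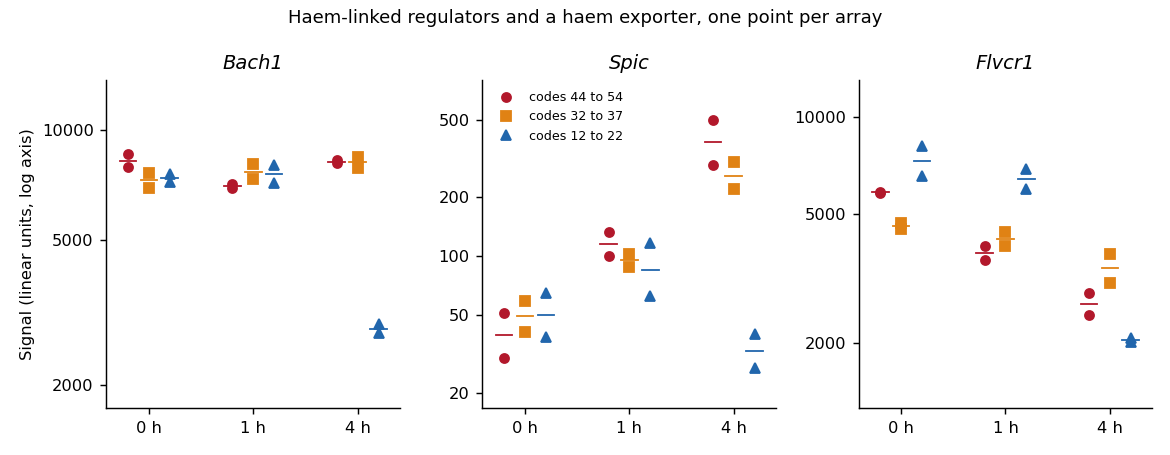
Signal of Bach1, Spic and Flvcr1 on every array (linear units, logarithmic axis) at 0 h, 1 h and 4 h, by range of array codes, with short lines at the geometric mean of each pair. Among the 4 h arrays, those of codes 12 to 22 are the lowest for all 3 genes, at 2941 and 2772 for Bach1.

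Over the 18 arrays, which share their times, the genes most like Steap4 in log2 level were Mcoln2 (Pearson r = 0.987), Smcr8 (0.967), Fabp3 (0.966), Nampt (0.965) and Alas1 (0.963). Those most like Aco1 were Lpgat1 (0.895), Nbeal1 (0.894), Sp1 (0.892), Pwwp2a (0.886) and Tcf12 (0.881). Those most like Hmox1, which was added after its values were seen, were Impact (0.960), Gtf2a1 (0.955), Sphk1 (0.942), Vps26a (0.935) and Fabp3 (0.934). Fabp3 stands in the lists of both Steap4 and Hmox1. These values describe patterns across the arrays and are not tests.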

How the data were processed

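The deposited table holds 1 signal intensity per probe set and array on a linear scale. Per the submitters' processing notes the authors used MAS5 and GCOS, with no version. Arrays were grouped by the time in their labels. Gene names came from GEO's annotation of the platform: of 45101 probe sets, 64 are controls, 34945 carry 1 symbol, 932 several and 9160 none. Intensities were taken as log2(signal + 16) without further scaling. A probe set was kept if above its array's median on at least 4 arrays, which left 25775 (57.1%), controls left out. A gene is shown by its kept probe set of highest mean. R 4.3.3 and limma 3.58.1 (lmFit, eBayes, two-sided) fitted a mean per time, a range with a time term, or 9 time and range means, with Benjamini-Hochberg adjustment over all kept probe sets, and the fit was tested on simulated data. No pair of arrays was identical (log2 correlation within a time 0.925 to 0.959), and the number of arrays limits the precision.

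The genes and lists were chosen with earlier results of these data known. Named are all 10 genes, up to 4 passing genes per list with the largest change at 4 h, Lcn2 and Ireb2, the 5 genes most like the member that rose most and the one that fell most, and others where said to be added later or lost under an alternative. Alternatives were the pseudocount, the filter, the scaling, the prior, the code range as a block, the time term and leaving out arrays. Promoters came from RefSeq.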

Additional observations from a re-analysis of the deposited data

Results flagged for a closer look

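Of 75 groups of 6 arrays for the iron genes named, 3 held an array far from the other 5 of its group, measured as its gap to the nearest array over the range of the group on the log2 scale. These were Steap4 at 0 h, where code 44 read 22.3 (gap 0.776 of the range), Aco1 at 4 h, where code 46 read 1581 (0.820), and Cd163 at 4 h, where code 34 read 88.4 (0.727). Chance alone gives about 1 in 20 such groups.

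The response at 4 h differed between codes 32 to 37 and codes 12 to 22 by 2.43 for Hmox1, 2.27 for Slc40a1, 2.51 for Spic, 1.53 for Bach1 and 1.40 for Flvcr1 (log2). The genotype, preparation or batch behind the ranges is not labelled, so these cannot be told apart.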

How the results depend on the processing

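No result changed direction past the threshold in any alternative run. The 4 h rises of Slc11a2, Hmox1 and Slc11a1 kept their call in every alternative that gave a value. Cp lost its call in 1 of 34, and Aco1 in 8 of 30 (-0.60 to -0.25). The median change of all probe sets at 4 h was -0.22 as deposited, -0.07 after quantile normalization and 0.04 after median centring, and probe sets that rose and fell numbered 2564 and 5966, 3178 and 3887, and 4197 and 2678 (30.1%, 45.0% and 61.0% rose).

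Probe sets changed at 1 h numbered 194, and 339 with the code range as a block, 341 with it as a random block (correlation 0.26), 107 without both arrays of high control ratio, 338 without codes 12 to 22, and 108 to 418 on leaving out single arrays. Without codes 12 to 22 the counts were 5641 at 4 h against 0 h (8530 with all arrays) and 3444 against 1 h (6285). That alternative, the one without both arrays of high control ratio, and the single-array alternatives for the differences in response were chosen after seeing the data.

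Without the time term, 2555 probe sets and 2 of the 9 genes differed between codes 44 to 54 and 12 to 22, 1969 and 1 between codes 32 to 37 and 12 to 22, and 2070 and 0 between codes 44 to 54 and 32 to 37 (with it 4947 and 6, 4587 and 2, and 4424 and 2). With no filter the last count of genes was 1, and on leaving out single arrays 1 to 3. The 4 h difference in response between codes 32 to 37 and 12 to 22 held for 2 genes, for 0 with no filter, for 1 each with quantile normalization, median centring and both arrays of high control ratio left out, and for 0 to 2 on leaving out single arrays. No paired analysis was possible because the labels carry no replicate numbers that pair arrays across times.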
